A study of Mus musculus with 15 samples.

Results

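Chemokines, interleukins and related cytokines are the secreted signals with which tissues recruit and instruct blood cells, and the set described here consists of these genes and the chemokine receptors as measured in purified retinal endothelial cells. Members were taken by gene symbol: chemokines of the CC, CXC and CX3C families, their CC and CXC receptors, interleukins, the colony-stimulating factors, Lif, Tnfaip3 and Ptgs2. The symbols matched 121 of the 45101 probe sets of the mouse genome array. These gave 81 of 18194 genes, because 1 of these probe sets carried several symbols of the Ccl21 family and was not counted, and because 25 members had more than 1 probe set and were represented by the brightest. The 81 genes were 18 CC chemokines, 13 CXC chemokines, 1 CX3C chemokine, 16 chemokine receptors, 27 interleukins, 4 colony-stimulating factors or Lif, and the pair Tnfaip3 and Ptgs2. No measured value entered the choice.

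The study profiled adult mice that lack one component of Norrin signalling: the receptor Frizzled4 (Fz4-/-, 3 arrays), the co-receptor Lrp5 (Lrp5-/-, 3 arrays) or the ligand Norrin (Norrin KO, 3 arrays), beside 6 wild-type arrays. They are called Fz4 KO, Lrp5 KO and Norrin KO below. All groups, wild type included, were on a C57Bl6/129 mixed background and were labelled mixed gender. For every array, retinal cells of 5 to 10 mice were pooled after capture on anti-PECAM beads, so each array is a pool and its spread is between pools, not between single mice, and nothing in the labels says that the pools of a group were collected separately. The labels name no promoter or Cre that would confine a loss to 1 cell type, so these data do not separate loss in the endothelium from loss elsewhere in the retina.

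As background, Norrin binds Frizzled4 with Lrp5 and stabilises beta-catenin in retinal endothelium, where this pathway is required for vessel growth and for the blood-retina barrier. Chemokines act through G-protein coupled receptors on leukocytes and on some endothelial cells. Many interleukins and colony-stimulating factors, though not all, act through receptors that signal by JAK and STAT proteins or by NF-kappaB. Endothelium and the macrophages that lie along vessels can both make many of these proteins.

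The arrays were checked before any member was tested. The deleted receptors went with the labels, with Fzd4 at a mean of 4.22 in Fz4 KO against 12.09 in wild type and Lrp5 at 4.91 in Lrp5 KO against 7.69, whereas Ndp, the Norrin gene, lay near background in all groups and checked nothing. All 10 endothelial markers lay above the median gene in each group. Xist, a marker of female cells, was uneven over the groups and read 11.42 to 11.88 in Fz4 KO, 4.12 to 4.98 in Norrin KO, 4.76 to 12.21 in Lrp5 KO and 4.88 to 12.27 in wild type. The gap between the 3-prime and 5-prime probe sets of actin, a sign of shorter or less intact RNA, was 1.05 to 2.92 in Norrin KO and 0.558 to 1.04 elsewhere. Lrp5 KO 1 stood apart on the second principal component, at 77.4, with wild type 4 next at 34.

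Macrophage and microglia markers differed between the mutants and wild type. At an adjusted p under 0.05, 14% of all genes rose and 9.91% fell over the mean of the mutants. Of the 19 macrophage and microglia markers, 11 rose and 2 fell, with a median log2 difference of 0.60. Their mean log2 signal per array was 8.15 to 9.50 in wild type, 9.56 to 10.09 in Fz4 KO, 9.16 to 9.75 in Lrp5 KO and 9.52 to 10.14 in Norrin KO. Perivascular macrophage genes led, with Mrc1 higher by 3.67, Cd163 by 2.44 and Pf4 by 2.00, while the microglial genes P2ry12 and Tmem119 fell by 0.99 and 1.09. Markers of T, B and NK cells were dim, with 9 or 10 of 10 below the median gene in each group. Of these, 1 rose and 1 fell over the mean of the mutants, with a median of -0.24. Of 11 neutrophil, mast cell and platelet markers, none rose and 1 fell over the mean of the mutants, with a median of -0.04. In Norrin KO, 2 of these fell and none rose. Markers of other cells moved too. Of 9 Muller glia and astrocyte markers, 2 rose and 2 fell over the mean of the mutants, and 3 rose and 1 fell in Lrp5 KO. All 9 lay above the median gene in each group, at a mean log2 signal per array of 10.57 to 11.4 in wild type. Of the 10 endothelial markers, 3 rose and 4 fell over the mean of the mutants. Of 10 pericyte and smooth muscle markers, 4 rose and none fell over the mean of the mutants, with a median of 0.32 and 5 at an unadjusted p under 0.05. Of 10 rod and cone markers, 1 rose over the mean of the mutants and 4 in Lrp5 KO, where all 10 were higher, with a median of 1.04. Of 4 red blood cell markers, 2 fell over the mean of the mutants, with a median of -0.97, and 3 in Fz4 KO. In such pools, fewer cells of a type and less RNA per cell cannot be told apart. Wild type 4 had the lowest macrophage mean, 8.15, and was the lowest wild-type array for 10 of the 16 members that rose, a share of 62.5%, against 37% of all 81 members and 36.3% of all genes. The part of these markers in the results below was not tested. With wild type 4 and Lrp5 KO 1 both left out, 19 members passed over the mean of the mutants, 18 of them also among the 19 that passed with all arrays (Cxcl1 was lost, adjusted p = 0.0786). Of all genes, 23.9% passed without these arrays. Ccl8 then differed by 3.20, Cxcr4 by 1.46, Il10 by 1.95 and Cxcl12 by -0.80.

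Values below are log2 signals, on which a difference of 1 is a 2-fold difference, and differences carry the standard error of the limma fit. A member passed at an adjusted p under 0.05 over all 18194 genes. All comparisons with wild type use the same 6 wild-type arrays. Over the mean of the 3 mutants, 16 members were higher and 3 were lower, which is 23.5% of the 81, against 23.9% of all genes (14 higher and 9.91 lower, in percent). The share of members that passed was near that of genes at large. Their median difference was 0.11, and that of all genes was -0.01. Among the 28 members brighter than the median gene, 8 were higher and 2 lower, a share of 35.7% against 34% of equally bright genes. Of the members, 42 lay below the median gene in all 4 groups. In 7 members every mutant array lay on 1 side of every wild-type array: Ccl8, Ccl5, Cxcr4, Il10, Il1b and Il6 above, and Ccl27a below. That count is 8.64% of members, where 8.29% of all genes did so (4.76% above and 3.53% below).

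**Figure D1:**
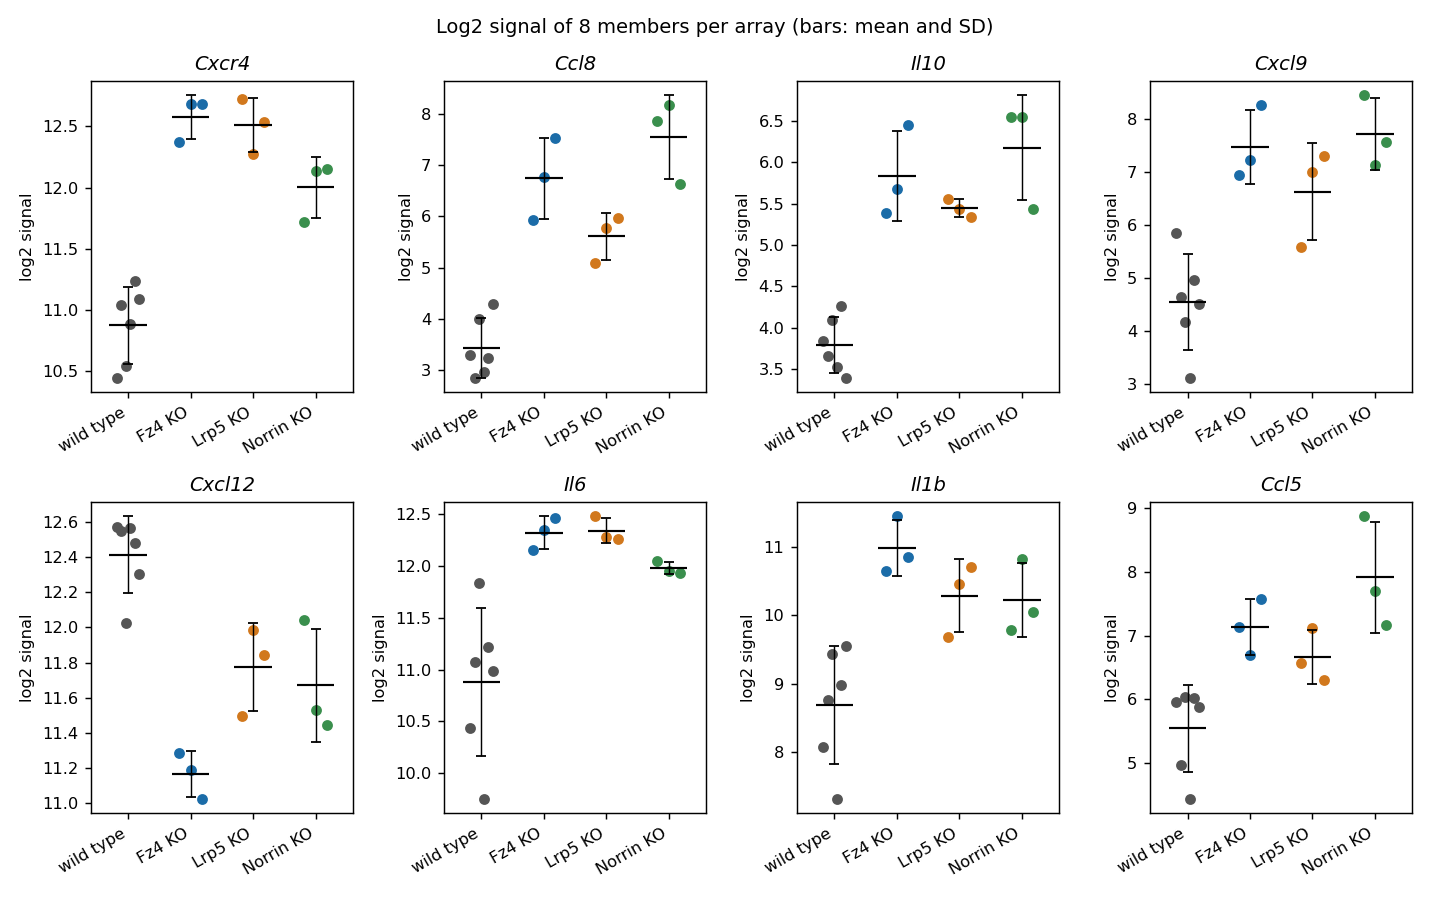
Log2 signal of 8 members on each array by group, where each point is a pool and the bars are the mean and SD of 6 wild-type or 3 mutant arrays; each panel has its own axis. Cxcr4, Ccl8, Il10, Il6, Il1b and Ccl5 are higher on every mutant array than on every wild-type array, Cxcl9 is higher on all but 1 of the mutant arrays, and Cxcl12 is lower on all but 1.

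The CC chemokines, which draw monocytes, T cells and eosinophils, held the largest rise of any member. Of 18 measured members, 5 rose and 2 fell over the mean of the mutants, or 38.9% against 23.9% of all genes, with a median of 0.27. Ccl8, a ligand that attracts monocytes and other leukocytes, changed most. Its signal was 2.84 to 4.30 (median 3.26) in wild type and read 5.94, 6.77 and 7.53 on the Fz4 KO arrays, 5.08, 5.78 and 5.97 on the Lrp5 KO arrays and 7.86, 8.18 and 6.64 on the Norrin KO arrays. No mutant array overlapped a wild-type array, and the Norrin KO and Fz4 KO arrays overlapped each other. The difference was 3.21 (SE 0.31, adjusted p = 2.74e-06) over the mean of the mutants, and it was 3.32 (SE 0.42, adjusted p = 5.96e-05) in Fz4 KO, 2.18 (SE 0.42, adjusted p = 0.00282) in Lrp5 KO and 4.13 (SE 0.42, adjusted p = 6.57e-06) in Norrin KO.

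Ccl5, which attracts T cells and monocytes, was 4.43 to 6.03 (median 5.92) in wild type and read 7.14, 6.70 and 7.58 on the Fz4 KO arrays, 6.57, 7.13 and 6.30 on the Lrp5 KO arrays and 8.88, 7.71 and 7.17 on the Norrin KO arrays. The mutant arrays again lay above all wild-type arrays, and the lowest mutant value was on an Lrp5 KO array. The rise was 1.69 (SE 0.31, adjusted p = 0.000878) over the mean of the mutants and 2.37 (SE 0.41, adjusted p = 0.00075) in Norrin KO; in Lrp5 KO it was 1.12 (SE 0.41, adjusted p = 0.0977), which did not pass. Ccl24, an eosinophil attractant, lay between 4.02 and 4.46 in wild type, and read 4.85, 5.01 and 6.19 on the Fz4 KO arrays, 4.35, 4.50 and 4.75 on the Lrp5 KO arrays and 7.10, 6.73 and 5.50 on the Norrin KO arrays. The Norrin KO and Fz4 KO arrays did not overlap wild type, but 1 Lrp5 KO array did. Ccl24 rose by 2.22 (SE 0.32, adjusted p = 0.000161) in Norrin KO, and its difference in Lrp5 KO was 0.31 (SE 0.32, adjusted p = 0.65).

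The monocyte attractants of the Ccl2 group gave a graded result. Ccl7 was 4.73 to 8.39 (median 7.92) in wild type and read 8.94, 9.65 and 9.91 on the Fz4 KO arrays, 7.67, 8.86 and 9.29 on the Lrp5 KO arrays and 8.71, 10.06 and 8.90 on the Norrin KO arrays; its rise over the mean of the mutants was 1.81 (SE 0.51, adjusted p = 0.0175). Ccl12 was higher by 1.24 (SE 0.35, adjusted p = 0.0182) over the mean of the mutants, with no mutant on its own past the threshold. Ccl2 itself, the main monocyte attractant, did not pass, at 0.67 (SE 0.35, adjusted p = 0.189), with wild type at 9 to 11.11 (median 10.97) and a 95% interval of the difference from -0.07 to 1.42. The wild-type arrays of Ccl2 and Ccl7 were widely spread, and wild type 4 was low in both.

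2 CC chemokines fell over the mean of the mutants. Ccl11, an eosinophil attractant, was 6.61 to 8.77 (median 8.11) in wild type and read 6.55, 5.15 and 6.25 on the Fz4 KO arrays and 5.40, 5.64 and 5.96 on the Norrin KO arrays, but 7.20, 8.23 and 8.17 on the Lrp5 KO arrays. The Fz4 KO and Norrin KO arrays lay below all wild-type arrays, and the Lrp5 KO arrays lay among them. It differed by -1.98 (SE 0.41, adjusted p = 0.00348) in Fz4 KO, by -2.29 (SE 0.41, adjusted p = 0.000909) in Norrin KO and by -0.09 (SE 0.41, adjusted p = 0.944) in Lrp5 KO. Ccl27a, a chemokine of skin-homing T cells, was 6.72 to 7.09 (median 6.93) in wild type and fell in all 3 mutants, by 1.20 (SE 0.24, adjusted p = 0.00186) over their mean. Its only probe set also matches near-identical gene copies, so that value is uncertain.

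Some calls of CC chemokines in single mutants ended when 1 array was left out. Ccl22, a T-cell attractant, rose in Fz4 KO by 1.02 (SE 0.25, adjusted p = 0.0109), and the call ended without Fz4 KO 3 (adjusted p = 0.0739). Ccl9, a macrophage-derived chemokine, rose in Norrin KO by 1.34 (SE 0.45, adjusted p = 0.0399); the call ended without Norrin KO 1 or 2, Fz4 KO 2, or wild type 1, 2 or 4 (adjusted p up to 0.173), and a second probe set of the gene differed by 0.26 in Norrin KO and did not pass. In Fz4 KO, the call of Ccl5 ended without Fz4 KO 1 or 3 (adjusted p up to 0.0956), that of Ccl24 without Fz4 KO 3 (0.196) and that of Ccl27a without Fz4 KO 1 or 2 (up to 0.132). Ccl7 lost its call in Fz4 KO without Fz4 KO 1, 2 or 3 or wild type 1 or 6 (up to 0.16). In Norrin KO, Ccl27a lost its call without Norrin KO 2 or 3 (0.079 and 0.0988), and in Lrp5 KO without Lrp5 KO 1 (0.06). A dimmer Ccl6 probe set rose in Norrin KO by 1.98 (adjusted p = 0.0229), where the brightest did not pass.

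The CXC chemokines divide into neutrophil attractants such as Cxcl1, Cxcl2 and Cxcl3, the interferon-induced T-cell attractants Cxcl9, Cxcl10 and Cxcl11, and the homeostatic Cxcl12 and Cxcl13. Of 13 members, 5 rose and 1 fell over the mean of the mutants, or 46.2% against 23.9% of all genes, with a median of 0.47. Cxcl9 was 3.11 to 5.86 (median 4.57) in wild type and read 6.94, 7.23 and 8.27 on the Fz4 KO arrays, 5.59, 6.998 and 7.31 on the Lrp5 KO arrays and 8.46, 7.13 and 7.58 on the Norrin KO arrays. Every mutant array but Lrp5 KO 1 lay above all wild-type arrays. The difference was 2.73 (SE 0.39, adjusted p = 0.000123) over the mean of the mutants, and a second probe set of the gene was higher by 1.02 (adjusted p = 0.0028). Cxcl11, from the same inducible group, differed the other way in Norrin KO, where it fell by 1.12 (SE 0.31, adjusted p = 0.0154) from wild-type values of 6.17 to 7.63 (median 6.74). That call ended without Norrin KO 2 (adjusted p = 0.0709), and the call of Cxcl9 in Lrp5 KO ended without Lrp5 KO 2 or 3 (up to 0.0987).

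Cxcl12, which guides leukocytes and vessels through Cxcr4, was the CXC chemokine that fell. It was 12.02 to 12.57 (median 12.51) in wild type and read 11.29, 11.19 and 11.02 on the Fz4 KO arrays, 11.50, 11.98 and 11.85 on the Lrp5 KO arrays and 12.04, 11.53 and 11.45 on the Norrin KO arrays. Fz4 KO arrays were lowest, and 1 Norrin KO array reached the wild-type range. It fell by 0.88 (SE 0.13, adjusted p = 0.000127) over the mean of the mutants and by 1.25 (SE 0.17, adjusted p = 0.00012) in Fz4 KO. In Lrp5 KO it fell by 0.64 (SE 0.17, adjusted p = 0.0224), and this call ended without Lrp5 KO 1 or 3 (adjusted p = 0.137 and 0.0587). Over the mean of the mutants, a second probe set gave -0.91 (adjusted p = 0.0278) and the remaining one -0.35 (0.15), and in Lrp5 KO they gave -1.06 (0.092) and -0.07 (0.919). Cxcl16, a ligand of Cxcr6, rose by 1.10 (SE 0.23, adjusted p = 0.00239), and its other probe set rose by 1.21. In Norrin KO the brightest Cxcl16 probe set differed by 0.52 and did not pass, while the other rose by 0.90 (adjusted p = 0.0279). In Lrp5 KO the call of Cxcl16 ended without Lrp5 KO 2 or 3 (adjusted p up to 0.0941).

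Cxcl13, which guides B cells, was 6.76 to 7.41 (median 7.12) in wild type and read 8.87, 8.92 and 9.98 on the Fz4 KO arrays, above all other arrays; Lrp5 KO read 7.98, 6.89 and 7.63 and Norrin KO 6.89, 6.86 and 6.95. The rise was 2.14 (SE 0.26, adjusted p = 4.07e-05) in Fz4 KO. A second, dimmer probe set for Cxcl13 rose in each mutant, by 5.19, 2.07 and 2.22 in Fz4 KO, Lrp5 KO and Norrin KO, so the probe sets disagree in direction for Norrin KO. Cxcl3 was 3.09 to 4.86 (median 3.84) in wild type and read 5.96, 6.22 and 8.09 on the Fz4 KO arrays, 5.05, 5.86 and 6.38 on the Lrp5 KO arrays and 5.01, 5.91 and 4.17 on the Norrin KO arrays, a rise of 1.83 (SE 0.39, adjusted p = 0.00306). Its call in Lrp5 KO ended without wild type 1, 2, 4 or 6, Norrin KO 1, or Lrp5 KO 2 or 3 (adjusted p up to 0.183). Cxcl1 was bright in every group, at 11.54 to 12.53 (median 11.94) in wild type; its rise of 0.47 (SE 0.15, adjusted p = 0.0303) ended without Fz4 KO 3, Lrp5 KO 1, or wild type 1, 2, 4, 5 or 6 (adjusted p up to 0.0797), and its other probe sets differed by 0.25 and 0.30 and did not pass, the chosen one being of a kind that can also bind near-identical sequences. The CX3C chemokine Cx3cl1, a membrane-bound ligand that endothelium makes, lay 8.21 to 8.77 (median 8.48) in wild type and differed by -0.06 (SE 0.16, adjusted p = 0.832), with a 95% interval from -0.40 to 0.28. A dimmer Cx3cl1 probe set differed by -0.62 in Norrin KO (adjusted p = 0.00322), where its other probe sets did not pass. Cxcl14 did not pass by its brightest probe set, at 0.89 over the mean of the mutants, but a dimmer one did, at 1.20 (adjusted p = 0.0241).

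NF-kappaB is a transcription factor known to drive many inflammatory genes, and its consensus lies upstream of Cxcl3, Cxcl1, Cxcl2 and Il6. Their sequences are shown because the first 3 are neighbours that carry the same match and did not all pass. They are the 250 bases upstream of the annotated start on GRCm38.p6, from RefSeq's promoter table, 5′ to 3′ on the plus strand, with the NF-kappaB consensus in capitals. They lie at chr5:90785851-90786100 (Cxcl3), chr5:90890995-90891244 (Cxcl1), chr5:90903649-90903898 (Cxcl2) and chr5:30012864-30013113 (Il6).
Cxcl3: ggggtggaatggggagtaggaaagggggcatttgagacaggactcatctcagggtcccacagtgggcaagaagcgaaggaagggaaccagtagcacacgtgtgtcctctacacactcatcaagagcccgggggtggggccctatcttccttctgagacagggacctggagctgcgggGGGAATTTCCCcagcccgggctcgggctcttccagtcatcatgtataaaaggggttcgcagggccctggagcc
Cxcl1: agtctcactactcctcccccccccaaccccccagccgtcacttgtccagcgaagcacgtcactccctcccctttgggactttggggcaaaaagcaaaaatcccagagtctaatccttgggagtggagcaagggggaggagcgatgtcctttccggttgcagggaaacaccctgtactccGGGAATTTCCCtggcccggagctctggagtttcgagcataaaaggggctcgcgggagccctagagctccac
Cxcl2: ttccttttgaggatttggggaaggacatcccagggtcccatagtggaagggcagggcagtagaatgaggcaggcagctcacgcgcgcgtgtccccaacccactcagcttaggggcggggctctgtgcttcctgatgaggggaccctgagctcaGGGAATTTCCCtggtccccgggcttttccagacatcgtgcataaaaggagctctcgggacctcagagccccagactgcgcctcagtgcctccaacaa
Il6: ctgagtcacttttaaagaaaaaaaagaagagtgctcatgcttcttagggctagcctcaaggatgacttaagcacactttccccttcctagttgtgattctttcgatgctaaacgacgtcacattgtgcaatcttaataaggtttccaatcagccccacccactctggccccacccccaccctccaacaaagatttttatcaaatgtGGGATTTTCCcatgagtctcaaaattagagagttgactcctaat
The first 3 carry the same capitals, GGGAATTTCCC, whose first base lies 73, 71 and 97 bases before the start, and Il6 carries GGGATTTTCC at 44 bases. Of these genes, Cxcl3, Cxcl1 and Il6 rose, while Cxcl2 differed by 0.38 (SE 0.22, adjusted p = 0.233). A promoter entry was found for 59 of the 81 members, and for 27025 genes in all. On either strand, the NF-kappaB consensus matched 16 of the 59 members (27.1%), against 8.23% of all promoters of that length. It matched 5 of the 11 members that rose and have an entry (Cxcl1, Cxcl3, Il6, Il16 and Lif), 11 of 46 that did not pass and 0 of 2 that fell. The other letters searched, on both strands and free to overlap, were TGANTCA for AP-1, TTCNNNGAA for STAT and CTTTGNT for TCF/LEF, found in 13, 4 and 16 of the 59 members, and in 7.82%, 8.13% and 18.1% of all promoters. Such a match describes letters and is not a bound site.

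Of 16 chemokine receptors, 1 rose and none fell over the mean of the mutants, against 23.9% of all genes, with 6 at an unadjusted p under 0.05 and a median of -0.02. It was Cxcr4, the receptor for Cxcl12, known from the tip cells of sprouting vessels. It was 10.44 to 11.23 (median 10.96) in wild type and read 12.37, 12.68 and 12.68 on the Fz4 KO arrays, 12.72, 12.28 and 12.54 on the Lrp5 KO arrays and 11.72, 12.14 and 12.16 on the Norrin KO arrays. All mutant arrays lay above all wild-type arrays, at a signal that placed the gene among the brightest of the array. The rise was 1.49 (SE 0.14, adjusted p = 1.88e-06) over the mean of the mutants, and 1.13 (SE 0.19, adjusted p = 0.00053) in Norrin KO. Its ligand Cxcl12 fell over the mean of the mutants, as given above.

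Other receptors passed in 1 mutant alone and were mostly dim. Ccr9, a receptor for Ccl25, fell in Fz4 KO by 1.25 (SE 0.28, adjusted p = 0.0063), and the neutrophil receptor Cxcr2 differed by -0.998 there (adjusted p = 0.00291), with arrays at 2.55, 2.98 and 2.77 against 3.55 to 4.13 (median 3.72) in wild type. In Norrin KO, Cxcr3, the receptor for Cxcl9, rose by 1.01 (SE 0.33, adjusted p = 0.0363), with arrays at 5.33, 5.42 and 3.86 against 3.50 to 4.72 (median 3.65); the call ended without Norrin KO 1 or 2 or wild type 1, 3, 4 or 6 (adjusted p up to 0.175). Ccr4 was lower by 0.37 there, and this ended on leaving out any array but wild type 3 (adjusted p up to 0.15). Ccr9's call ended without Fz4 KO 3 (0.056); none of its other 4 probe sets passed in Fz4 KO, and with the mean of all its probe sets the difference was -0.629 (adjusted p = 0.0582). 2 receptors had a dimmer probe set that passed over the mean of the mutants where the brightest did not. For Ccr1, a receptor of monocytes and neutrophils, it was higher by 1.31 (adjusted p = 0.00556), and by 2.38 (0.000679) in Norrin KO, against -0.19 and -0.31 for the brightest. For Ccr2, the receptor of Ccl2, it was higher by 0.46 (0.0213), at a mean of 2.33 in wild type, against 0.16 for the brightest. Cxcr2, Cxcr3 and Ccr4 lay below the median gene, at 7.02, in all groups.

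**Figure D2:**
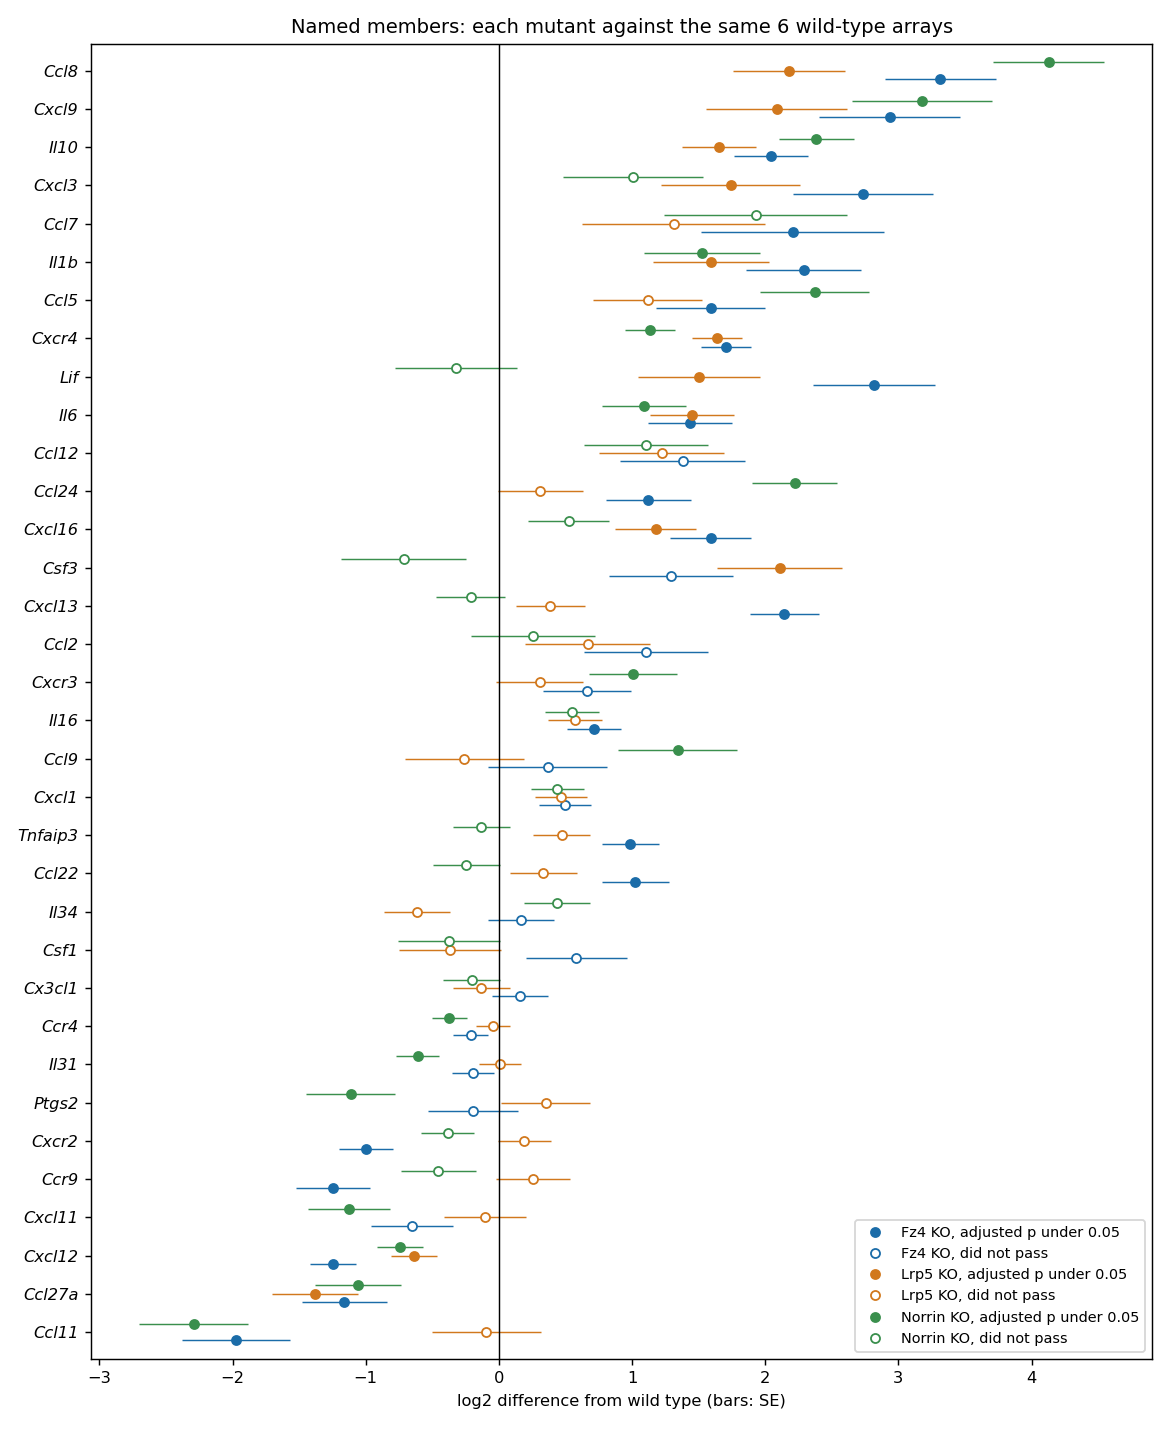
Log2 difference of each named member from the 6 wild-type arrays, by mutant, with bars of 1 standard error; the 3 mutants share those wild-type arrays. Ccl8 differs most, by 4.13 in Norrin KO, and Ccl11 reads -1.98 in Fz4 KO and -2.29 in Norrin KO but -0.09 in Lrp5 KO.

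Among 27 interleukins, 4 rose and none fell over the mean of the mutants, or 14.8% against 23.9% of all genes. At an unadjusted p under 0.05 there were 5 interleukins, against 6260 of all 18194 genes. The anti-inflammatory Il10 was 3.39 to 4.26 (median 3.74) in wild type and read 5.39, 5.67 and 6.45 on the Fz4 KO arrays, 5.55, 5.44 and 5.33 on the Lrp5 KO arrays and 6.54, 6.54 and 5.44 on the Norrin KO arrays. No mutant array overlapped a wild-type array in Il10, while the mutant groups overlapped each other. Its rise over the mean of the mutants was 2.03 (SE 0.21, adjusted p = 4.89e-06). Il1b, a leading inflammatory cytokine, was 7.32 to 9.55 (median 8.88) in wild type and read 10.65, 11.44 and 10.85 on the Fz4 KO arrays, 9.69, 10.46 and 10.71 on the Lrp5 KO arrays and 9.78, 10.82 and 10.05 on the Norrin KO arrays, a rise of 1.80 (SE 0.32, adjusted p = 0.000835). Again no mutant array reached down to a wild-type array.

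Il6, which acts through Il6ra and gp130, was bright in all groups: 9.75 to 11.84 (median 11.03) in wild type, 12.15, 12.34 and 12.46 on the Fz4 KO arrays, 12.47, 12.27 and 12.26 on the Lrp5 KO arrays and 12.04, 11.95 and 11.93 on the Norrin KO arrays. The lowest mutant array lay just above the highest wild-type array, and the rise was 1.33 (SE 0.24, adjusted p = 0.000763). Il16, a T-cell attractant, rose by 0.61 (SE 0.15, adjusted p = 0.00812), and its other 3 probe sets did not pass over the mean of the mutants. A dim Il16 probe set rose in Norrin KO by 0.75 (adjusted p = 0.00618), where the brightest did not pass. Il21 differed by -0.41 by its brightest probe set, which did not pass, while a dimmer one rose by 0.89 (adjusted p = 0.0138). In single mutants, Il31, a T-cell cytokine of low signal, fell in Norrin KO by 0.61 (SE 0.16, adjusted p = 0.0117). Il34, a ligand of the Csf1 receptor and a microglial survival factor, did not differ from wild type past the threshold, with -0.00454 (SE 0.19, adjusted p = 0.99) over the mean of the mutants. Calls that ended on leaving out an array were Il6 in Norrin KO (adjusted p up to 0.0722, without Norrin KO 1, 2 or 3), Il1b in Lrp5 KO (up to 0.122, without Lrp5 KO 2 or 3 or wild type 1) and in Norrin KO (0.0926, without Norrin KO 2), Il16 in Fz4 KO (up to 0.0938, without Fz4 KO 1, 2 or 3) and Il31 in Norrin KO (0.0659, without Norrin KO 2).

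Of Csf1, Csf2, Csf3 and Lif, 1 member rose over the mean of the mutants, and Csf3 and Lif differed between mutants. Lif, a cytokine of the Il6 family, was 5.34 to 7.18 (median 6.01) in wild type and read 8.96, 7.71 and 9.78 on the Fz4 KO arrays, 7.66, 7.39 and 7.47 on the Lrp5 KO arrays and 5.64, 6.49 and 4.92 on the Norrin KO arrays. Fz4 KO arrays were highest and Norrin KO overlapped wild type. Lif rose by 2.81 (SE 0.46, adjusted p = 0.000556) in Fz4 KO and by 1.50 (SE 0.46, adjusted p = 0.0442) in Lrp5 KO; the second of these ended without any one Lrp5 KO array, Fz4 KO 1, Norrin KO 1, or wild type 1, 2, 4, 5 or 6 (adjusted p up to 0.151). A second, dim Lif probe set differed by -0.05 over the mean of the mutants.

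Csf3, the granulocyte factor, was 5.58 to 8.63 (median 7.49) in wild type, 9.39, 9.56 and 9.32 on the Lrp5 KO arrays, 8.81, 7.90 and 9.10 on the Fz4 KO arrays and 6.50, 6.53 and 6.76 on the Norrin KO arrays. All 3 Lrp5 KO arrays lay above wild type, and the Norrin KO arrays lay within the wild-type range. It rose by 2.11 (SE 0.47, adjusted p = 0.00752) in Lrp5 KO. Csf1, the macrophage survival factor, differed by -0.05 (SE 0.29, adjusted p = 0.92), with a 95% interval from -0.66 to 0.56. A dimmer Csf1 probe set differed by -0.50 in Norrin KO (adjusted p = 0.0294), where its other probe sets did not pass. Tnfaip3, an enzyme that limits NF-kappaB signalling, was 10.13 to 11.22 (median 10.42) in wild type and 11.30, 11.32 and 11.80 on the Fz4 KO arrays, where it rose by 0.99 (SE 0.21, adjusted p = 0.00478); Norrin KO read 10.32, 10.32 and 10.41. Ptgs2, the inducible prostaglandin synthase, was 10.19 to 12.22 (median 11.27) in wild type and 9.77, 10.69 and 9.95 on the Norrin KO arrays, where it fell by 1.11 (SE 0.34, adjusted p = 0.0251). Without Norrin KO 1 or Norrin KO 3 its call ended (adjusted p = 0.12 and 0.0871), and its other probe set did not pass.

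By mutant, 21 members passed in Fz4 KO, 16 higher and 5 lower, or 25.9% against 16.7% of all genes (10.7% higher and 6.08% lower). In Lrp5 KO, 12 passed, 10 higher and 2 lower (14.8% against 12.9%, of genes 5.63% higher and 7.27% lower), a count that was 6 without Lrp5 KO 3 and 8 without Lrp5 KO 1 and wild type 4. Without those arrays, 8.66% and 9.59% of all genes passed. In Norrin KO, 17 passed, 10 higher and 7 lower (21% against 25.8%, of genes 16.7% higher and 9.13% lower). An earlier analysis of these data set Fz4 KO beside wild type 1 to 3 and Lrp5 KO beside wild type 4 to 6. With these wild-type arrays alone, 16 members passed in Fz4 KO and 9 in Lrp5 KO, where 10.9% and 8.94% of all genes did. The calls that ended were Ccl24 (adjusted p = 0.0754), Ccl27a (0.0612), Ccl5 (0.0732), Ccl7 (0.195) and Il16 (0.0665) in Fz4 KO, and Cxcl12 (0.056), Cxcl3 (0.0798) and Il1b (0.0657) in Lrp5 KO. With each mutant array paired in number order with one of these, 25 members passed in Fz4 KO and 19 in Lrp5 KO. Of all genes, 19% and 17.4% did so. This pairing was an alternative chosen after seeing the data. Of the named members, Ccl22 (0.108) and Il6 (0.0517) then lost their call in Fz4 KO, Ccl12 and Cxcl11 gained one there, and Ccl12, Ccl5, Ccl7, Il16 and Tnfaip3 gained one in Lrp5 KO (adjusted p from 0.00947 to 0.0461). Because the mutants share wild-type arrays, these counts are set side by side and not compared. Of the 19 members that passed over the mean of the mutants, 18 kept their call with each array left out in turn, the exception being Cxcl1.

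Mutants were then compared with each other, a contrast that uses no wild-type array for its difference. Fz4 KO and Lrp5 KO differed in 1 member, or 1.23% against 0.225% of all genes. Cxcl13 was higher in Fz4 KO by 1.76 (SE 0.30, adjusted p = 0.0263), and the call ended without Fz4 KO 3, Lrp5 KO 2 or Lrp5 KO 3 (adjusted p = 0.116, 0.0877 and 0.0936). Without wild type 4 the count was 3, where 0.297% of all genes passed. Fz4 KO and Norrin KO differed in 4 members, 4.94% against 2.32% of genes, all higher in Fz4 KO. These were Lif (3.14 (SE 0.53, adjusted p = 0.0106)), Cxcl13 (2.35 (SE 0.30, adjusted p = 0.0044)), Ccl22 (1.27 (SE 0.29, adjusted p = 0.0382)) and Tnfaip3 (1.12 (SE 0.25, adjusted p = 0.0339)). The count was 1 without Fz4 KO 1 and 2 without Fz4 KO 3, Norrin KO 1, wild type 2 or wild type 6. Of all genes, 0.335%, 0.55%, 0.561%, 1.19% and 1.25% then passed, in that order. The call of Lif ended without Fz4 KO 1 (adjusted p = 0.0571). That of Tnfaip3 ended without Fz4 KO 1, 2 or 3, Norrin KO 1 or 3, or wild type 2 or 6 (up to 0.122), and that of Ccl22 without Fz4 KO 1 or 3, Norrin KO 1 or 3, Lrp5 KO 3, or wild type 1, 2, 5 or 6 (up to 0.113).

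Norrin KO and Lrp5 KO differed in 9 members, 11.1% against 11.9% of genes. Higher in Norrin KO were Ccl8 (1.95 (SE 0.48, adjusted p = 0.0211)), Ccl24 (1.91 (SE 0.37, adjusted p = 0.00729)), Il34 (1.05 (SE 0.29, adjusted p = 0.0317)) and Il18 (1.13 (SE 0.28, adjusted p = 0.0198)), of which Il18 lies outside the naming rule and was chosen after its values were seen. Lower in Norrin KO were Csf3 (-2.82 (SE 0.54, adjusted p = 0.00699)), Ccl11 (-2.20 (SE 0.47, adjusted p = 0.0113)), Lif (-1.82 (SE 0.53, adjusted p = 0.0394)), Ptgs2 (-1.47 (SE 0.39, adjusted p = 0.0274)) and Il31 (-0.62 (SE 0.19, adjusted p = 0.044)). The count was 3 without Lrp5 KO 1 and 4 without Lrp5 KO 3 or Norrin KO 1. Of all genes, 3.67%, 5.42% and 5.69% then passed, in that order. The calls of Ccl24, Csf3 and Ccl11 held with each array left out, and Il18 was not refitted. Ccl8 lost its call without Norrin KO 1 or 2 or Lrp5 KO 1 (adjusted p up to 0.0971), Il34 without Norrin KO 2 or 3 or Lrp5 KO 1 or 3 (up to 0.138) and Ptgs2 without Norrin KO 1 or 3 or Lrp5 KO 1 or 3 (up to 0.0977). Lif lost it without any Lrp5 KO array, Norrin KO 1 or 3, Fz4 KO 1, or wild type 1 or 2 (up to 0.133), and Il31 on leaving out any array but Lrp5 KO 2 or wild type 3, 4 or 5 (up to 0.177). The Norrin KO arrays also differ from the others in the actin gap and Xist given above, and the part of these in the difference was not tested.

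**Figure D3:**
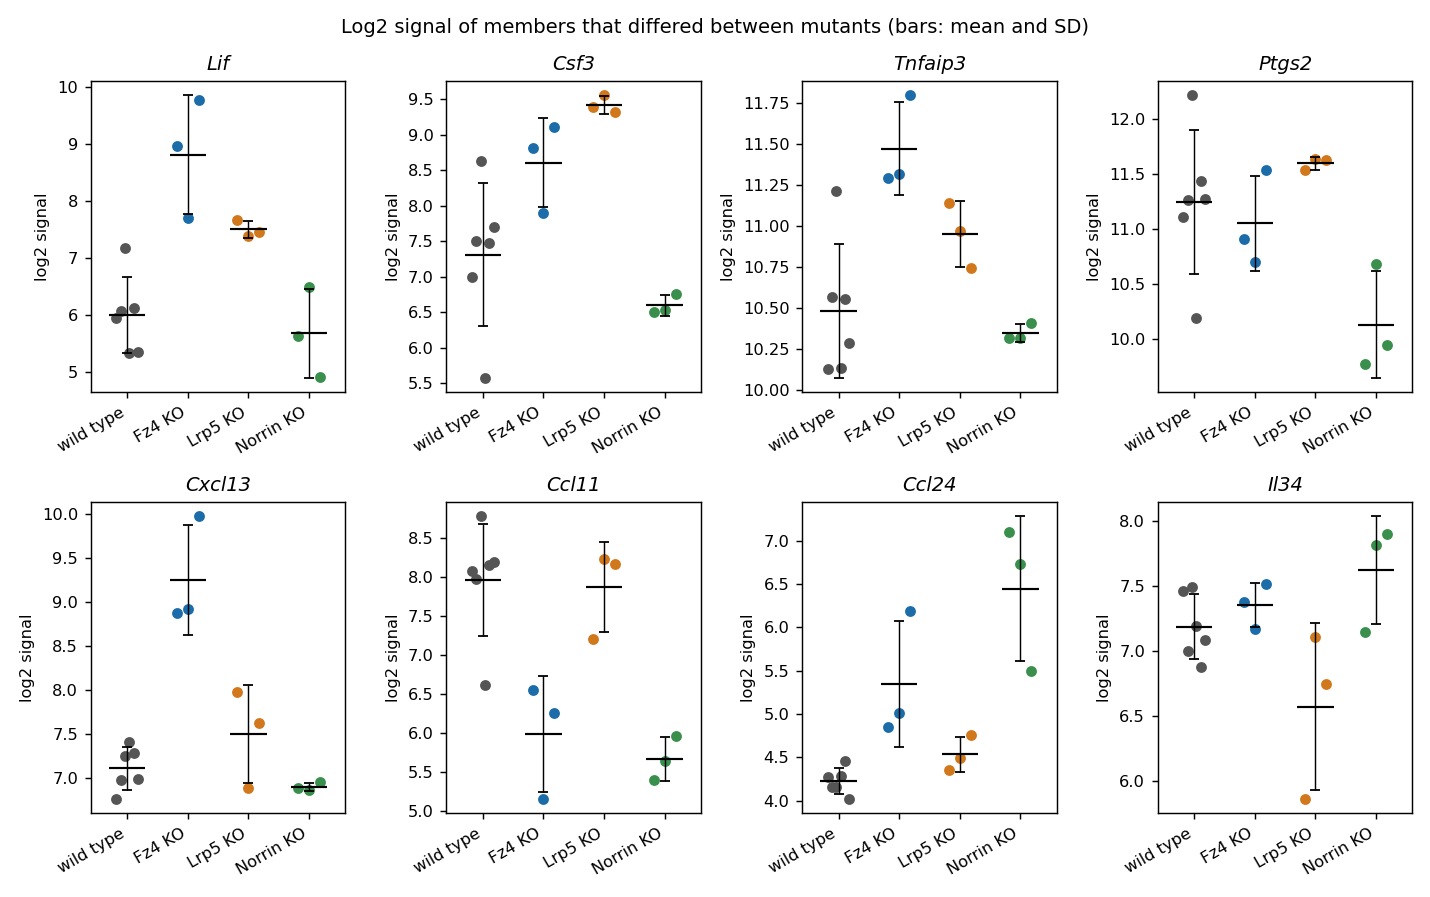
Log2 signal on each array of 8 of the 12 members that differed between mutants, chosen for display, with points as pools and bars as mean and SD. Lif is highest in Fz4 KO at 7.71 to 9.78, Csf3 is highest in Lrp5 KO at 9.32 to 9.56, and Ccl11 is lowest in Norrin KO and Fz4 KO.

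Many chemokine genes sit side by side, so members were placed in the order of the RefSeq gene table, where 80 of 81 were found. On chromosome 11 the run Ccl2, Ccl7, Ccl11, Ccl12, Ccl8, Ccl1 gave, over the mean of the mutants, differences of 0.67, 1.81, -1.45, 1.24, 3.21 and 0.14. Ccl11, which fell, thus lies between Ccl7 and Ccl12, which rose. A second run on the same chromosome, Ccl5, Ccl9, Ccl6, Ccl3 and Ccl4, gave 1.69, 0.48, 0.79, -0.18 and -0.16, and Ccl5 alone passed. On chromosome 5 the run Cxcl5, Cxcl3, Cxcl15, Cxcl1 and Cxcl2 gave 0.19, 1.83, -0.23, 0.47 and 0.38, and Cxcl3 and Cxcl1 passed. Neighbours thus did not all pass together in any of these runs. Ccl1, Cxcl5 and Cxcl15 were dim, at wild-type means of 3.055, 2.20 and 4.37, so little can be read from their small differences.

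**Figure D4:**
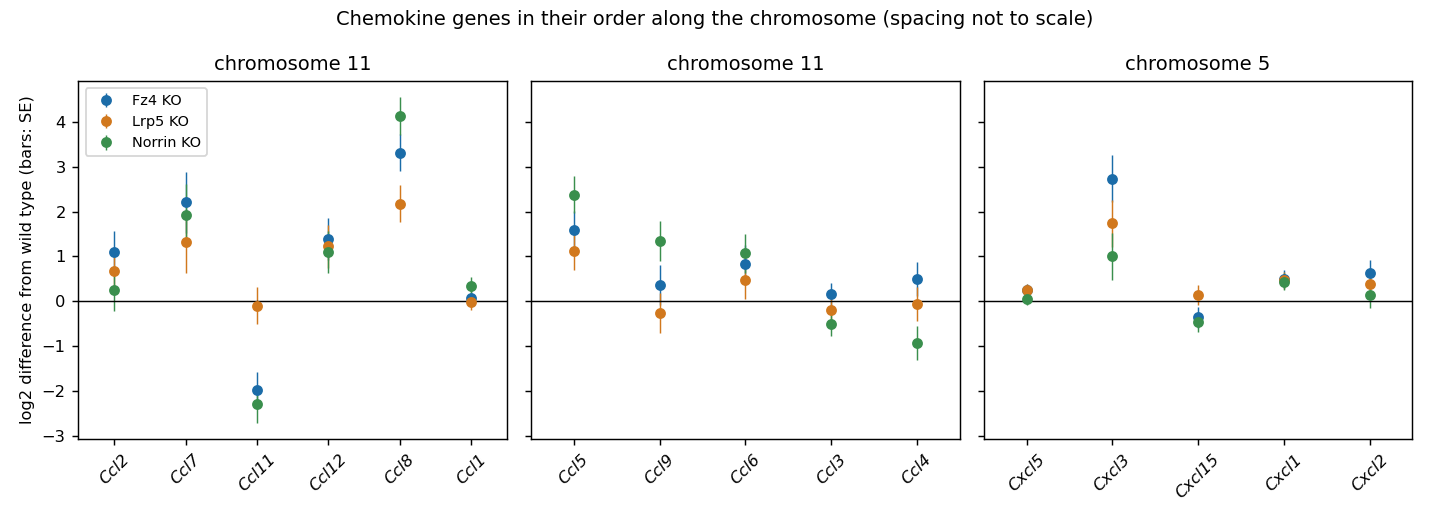
Log2 difference of chemokine genes from the 6 wild-type arrays, in their order along the chromosome (spacing not to scale), by mutant, with bars of 1 standard error. In the chromosome 11 run that holds both genes, Ccl8 reaches 4.13 in Norrin KO while Ccl11 reads -2.29.

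Related genes from lists of general knowledge were counted beside the members. Among 23 receptor chains for the member cytokines, 6 rose and 2 fell, with a median of 0.06. Csf2rb, the shared chain for Il3, Il5 and Csf2, rose by 2.95 (adjusted p = 2.94e-05), the Il1 receptor antagonist Il1rn by 1.84 (adjusted p = 0.000133) and the decoy Il1r2 by 1.40 (adjusted p = 0.0199), while Il10rb, a chain of the Il10 receptor, fell by 1.40 (adjusted p = 1.19e-05). Of 4 atypical chemokine receptors, which bind chemokines without usual signalling, Ackr2 rose by 3.10 (adjusted p = 1.19e-05) and Ackr1, a venule gene, by 3.03 (adjusted p = 1.07e-06), Ackr4 fell by 0.78 (adjusted p = 0.000375), and Ackr3, the other Cxcl12 receptor, differed by 0.06 (adjusted p = 0.64).

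Of 22 genes of TNF and NF-kappaB signalling, 7 rose and none fell, with 10 at an unadjusted p under 0.05 and a median of 0.25. Tnfaip2, a TNF-induced gene, rose by 1.62, the TNF receptor Tnfrsf1a by 1.40, the inhibitor Nfkbie by 1.38 and the Tnfaip3 partner Tnip1 by 1.29. The probe sets of Tnfaip2 and Nfkbie are of kinds that can also bind near-identical sequences, so these values are uncertain. Of 15 immediate and feedback genes of cytokine signalling, 5 rose and 1 fell. Bcl3 rose by 1.44, the kinase Jak1 by 0.89 and the factor Cebpb by 0.75, and Tyk2 fell by 0.74. Of 14 prostaglandin genes, 4 rose and 2 fell: the prostaglandin carrier Slco2a1 rose by 4.33 (adjusted p = 8.7e-10), the receptors Ptgir and Ptger4 by 1.64 and 1.19, and the synthase Ptges fell by 2.08. Against the background of 23.9% of genes, these counts are given as description.

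**Figure D5:**
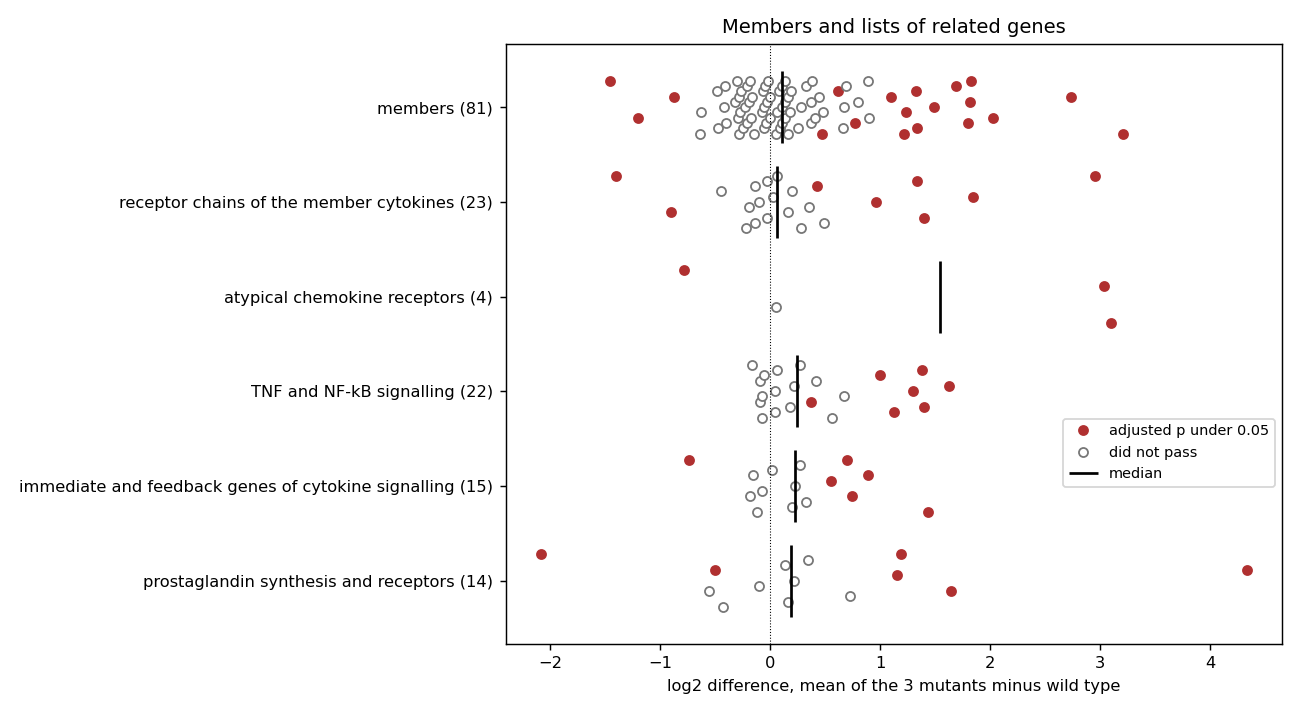
Log2 difference over the mean of the 3 mutants for each gene of the members and of the lists of related genes, with the count of measured genes in parentheses; passed and not passed genes are marked apart. Medians are 0.11 for the 81 members and 0.25 for the TNF and NF-kappaB list, and Slco2a1 at 4.33 is the farthest point.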

How the data were processed

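The deposited values were log2 signals of 45101 probe sets on 15 arrays, which RMA produced, per the submitters' processing notes. The version of RMA and whether it treated all arrays together were not given in the sources used here. They were used as deposited. Of the probe sets, 34958 carried 1 gene symbol, 932 several and 9211 none. A gene was represented by its brightest probe set, ranked on the mean of the 15 arrays. 4 group means were fitted to all 15 arrays in limma 3.58.1 under R 4.3.3 (lmFit, contrasts.fit, eBayes), and p-values were adjusted by Benjamini and Hochberg over 18194 genes within each contrast, at a threshold of 0.05. The number of arrays limits the precision. On simulated data the fit recovered 53% to 66% of genes changed 2-fold and 93% to 95% of those changed 4-fold against wild type. Each simulation changed 100 genes 2-fold and 100 genes 4-fold, of 18194, in 1 mutant, with independent noise on every array. In the data, 12.9% to 25.8% of genes passed in a single mutant and some arrays correlated, so these rates may not hold there. Same-numbered arrays correlated from -0.238 to 0.381 in their deviations over all groups, not all over 0.1, and the labels name no shared litter or day, so no pairing was used in the reported fit. An earlier analysis set the first 3 wild-type arrays beside Fz4 KO and the last 3 beside Lrp5 KO. Taken in number order, these pairs correlated from 0.276 to 0.653, and fits with them are given beside the counts by mutant. The members and lists were chosen with earlier results of these data known. Members were named where they passed against wild type, at most 30 by size, or between mutants, at most 5 a pair, with 12 genes of known endothelial roles whatever their result, 11 of them members and Cxcr7, now Ackr3, among the related receptors; list genes were the 4 largest past the threshold. Alternatives are given in the closing section. Genes were placed by RefSeq tables on GRCm38.p6.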

Additional observations from a re-analysis of the deposited data

Results flagged for a closer look

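In 2 of 34 named members, 1 wild-type array lay far from the other 5; chance does this in about 1 of 20 groups. Ccl11 read 6.61 in wild type 4, with the nearest array at 7.97. Csf1 read 7.24 in wild type 4, with the nearest at 8.75.

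Members whose difference from wild type differed between mutants, by the limma test of that difference, were these. Fz4 KO against Lrp5 KO: Cxcl13 by 1.76 (adjusted p = 0.0263). Fz4 KO exceeded Norrin KO in Cxcl13 by 2.35 (0.0044), Lif by 3.14 (0.0106), Ccl22 by 1.27 (0.0382) and Tnfaip3 by 1.12 (0.0339), with adjusted p in parentheses. Norrin KO against Lrp5 KO gave higher Ccl24 by 1.91 (0.00729), Ccl8 by 1.95 (0.0211) and Il34 by 1.05 (0.0317). It gave differences of -2.82 for Csf3 (0.00699), -2.20 for Ccl11 (0.0113), -1.82 for Lif (0.0394), -1.47 for Ptgs2 (0.0274) and -0.62 for Il31 (0.044).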

How the results depend on the processing

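Some alternatives did not test every member, and a member not tested was not counted as having lost its call. The restriction to genes above the median gene left out all dimmer members, among them Ccl8, Il10 and Cxcl9. A further alternative, without probe sets of kinds that can bind near-identical sequences, left out Ccl27a. Of the members that passed, 15 of 19 over the mean of the mutants, 11 of 21 in Fz4 KO, 5 of 12 in Lrp5 KO and 8 of 17 in Norrin KO kept their call under every alternative that tested them and with each array left out. Between mutants this held for 0 of 1, 0 of 4 and 2 of 8 named members (Fz4 KO against Lrp5 KO, Fz4 KO against Norrin KO, Norrin KO against Lrp5 KO). Leaving out each array gave 18 to 23 members over the mean of the mutants, 15 to 27 in Fz4 KO, 6 to 15 in Lrp5 KO, 12 to 21 in Norrin KO, 0 to 3, 1 to 6 and 3 to 11 between mutants in that order. Of all genes, 20.5% to 24.9%, 10.5% to 18.4%, 8.34% to 14.6% and 18.6% to 27.4% then passed against wild type, in that order. Between mutants, 0.0605% to 0.297%, 0.335% to 4.2% and 3.67% to 15.6% of all genes did. Restricting to genes above the median gene, which tests 28 members, gave 11, 11, 6 and 8 members against wild type (mean, Fz4 KO, Lrp5 KO, Norrin KO) and 5 for Norrin KO against Lrp5 KO. Of all genes tested there, 39.4%, 29.1%, 26%, 39.8% and 22.1% passed, in that order. Fz4 KO against Lrp5 KO gave 2 members with centred arrays, with the mean of all probe sets, with eBayes with trend and robust, and without Lrp5 KO 1 and wild type 4 together. Of all genes, 0.242%, 0.302%, 0.286% and 0.17% passed there, in that order. Fitting only the groups compared, which holds fewer arrays, gave 0, 0 and 2 members between mutants, where 14, 20 and 22 had an unadjusted p under 0.05 in the fit of all arrays. Of all genes, 0.0275%, 0.104% and 1.09% passed with only the groups compared. In the fit of all arrays, 1668, 3287 and 5319 of 18194 genes had an unadjusted p under 0.05. The fit with the replicate number as a block (replicate block) gave 7 members in Lrp5 KO, 0 for Fz4 KO against Lrp5 KO and 1 for Fz4 KO against Norrin KO, and ended the calls over the mean of the mutants of Ccl24 (adjusted p = 0.0511), Cxcl16 (0.0516), Lif (0.228) and Cxcl1 (0.242). Of all genes, 7.57%, 0.104% and 0.335% passed in those 3 comparisons of the block fit. Without Lrp5 KO 1 and wild type 4 together, Norrin KO against Lrp5 KO gave 5, where 6.32% of all genes passed. With the mean of all probe sets, Cxcl13 in Norrin KO reversed, to 1.01. The cause was not tested for any of these. Wild-type arrays matched to Fz4 KO and Lrp5 KO, tried for those comparisons only, gave 16 and 9 members, and the same arrays in pairs (replicate block), added after seeing the data, gave 25 and 19. Of all genes, 10.9% and 8.94% passed with the matched arrays, and 19% and 17.4% with the pairs.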
